A study of Mus musculus with 8 samples.

Results

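The D-type cyclins, their kinase partners and the inhibitors that hold them in check were examined in H3K27Ac ChIP-Seq of the postnatal mouse heart. The 10 genes were *Ccnd1*, *Ccnd2*, *Ccnd3*, *Cdk4*, *Cdk6*, *Cdkn1a*, *Cdkn1b*, *Cdkn1c*, *Cdkn2b* and *Rb1*. A peak was assigned to one of them when its centre lay nearest to a curated RefSeq transcription start of that gene in mm10, which selected 43 of the 45987 peaks in the deposited table. Chromatin came from ventricles at postnatal day 7 (P7). Controls were Arid1a f/f, carrying floxed *Arid1a* without Cre, and mutants were aMHC-Cre;Arid1a f/f (*Arid1a cKO*), so the floxed alleles were common to both groups. The aMHC promoter drives Cre in cardiomyocytes, and fibroblasts, endothelial cells and other cells of the ventricle retained *Arid1a*. Each genotype had 2 H3K27Ac libraries and 2 input libraries, 8 libraries in all.

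Cells commit to division in G1, when D-type cyclins bind CDK4 or CDK6 and the active kinases phosphorylate RB1, the retinoblastoma pocket protein, which then releases E2F transcription factors. The CIP/KIP inhibitors p21, p27 and p57, encoded by *Cdkn1a*, *Cdkn1b* and *Cdkn1c*, bind cyclin and kinase together, whereas the INK4 inhibitor p15, encoded by *Cdkn2b*, binds CDK4 and CDK6 themselves. Mouse cardiomyocytes leave the cell cycle soon after birth, and D-type cyclins and their inhibitors take part in this exit. H3K27Ac is acetylation of histone H3 on lysine 27, a mark of active promoters and enhancers.

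The deposited values are the authors' means of normalized reads per peak and genotype, on the log2 scale, with 0 columns for single libraries. Every value below is therefore the authors' mean of 2 libraries, printed as normalized reads, and differences are log2 of the *Arid1a cKO* mean minus log2 of the control mean. No spread between replicates, confidence interval or test could be computed, and the depth of the libraries is unknown. A peak was described as higher or lower only when the group means differed by at least 1.5-fold, which is 0.585 on the log2 scale, and this limit is a size and not a test. In whole ventricle, fewer cells of a type and less acetylation per cell cannot be told apart.

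Each of the 10 genes had an H3K27Ac peak of the common set over at least 1 transcription start. A read mean in each genotype is not a peak called in each. The difference at all 11 covered starts was under 1.5-fold. Over all peaks on assembled chromosomes, 12.0% were higher and 17.3% lower in *Arid1a cKO*, against 4 higher and 3 lower among the 43 peaks of the cell cycle genes, or 9.30% and 6.98%. The D-type cyclins, which hold 23 of the 43 peaks, had the 4 higher peaks and 2 of the 3 lower ones, or 17.4% and 8.70% of their own peaks. The other lower peak was 1 of 10 kinase peaks and belonged to *Cdk6*. None of the 8 inhibitor peaks was past the limit as deposited, but with both groups scaled to equal sums 2 *Cdkn1c* peaks, at 0.64 and 0.62, were past it, which made 6 higher and 3 lower. All 7 lay away from a transcription start. The median difference was 0.09 over the 43 peaks and 0.01 over all peaks, with 28 of the 43 above 0, or 65.1%, against 50.6% of all peaks. Summed over the 43 peaks, normalized reads were 6449 in control and 6838 in *Arid1a cKO*, a ratio of 1.06, against 0.943 over all peaks. All 43 peaks had a value in both groups and none was filtered out.

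**Figure D1:**
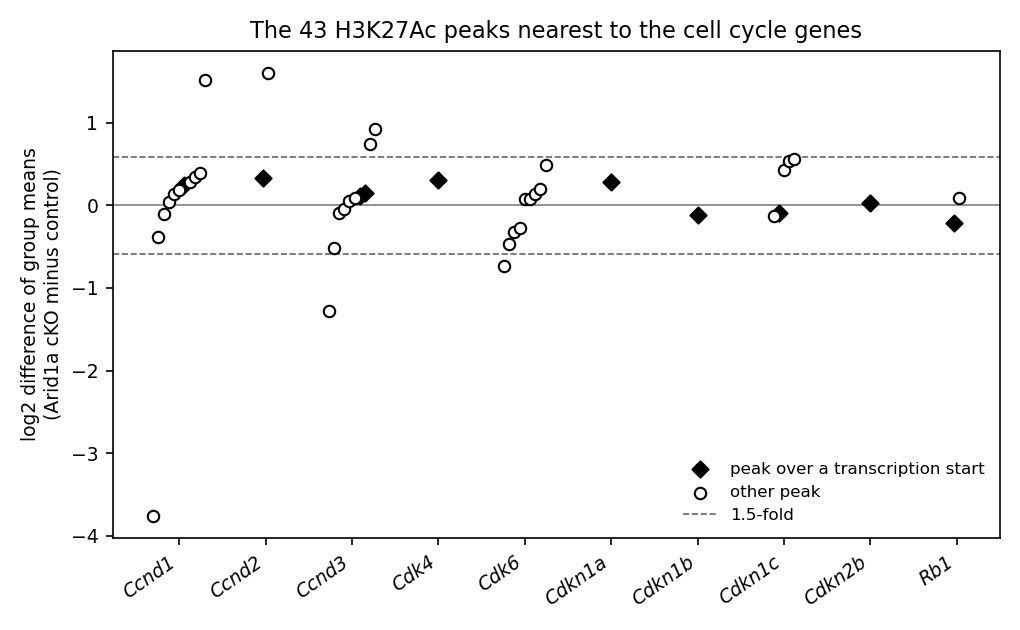
Difference in H3K27Ac between *Arid1a cKO* and control (log2 of the authors' group means) for each of the 43 peaks, by gene and sorted by size within a gene. Filled diamonds cover a transcription start, open circles do not, and dashed lines mark 1.5-fold. The 7 points beyond the dashed lines are open circles at *Ccnd1*, *Ccnd2*, *Ccnd3* and *Cdk6*, and the lowest point, at *Ccnd1*, rests on an *Arid1a cKO* mean below 3 reads.

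Facts of the whole table that bear on these values were as follows. Summed over all peaks, the ratio of *Arid1a cKO* to control reads was 0.943. Among heart markers, each of 8 cardiomyocyte genes had peaks, with 25956 reads in control and 23666 in *Arid1a cKO* summed over the list, a ratio of 0.912. This list had 43 peaks of its own, 5 higher and 6 lower, or 11.6% and 14.0%, against 12.0% and 17.3% of all peaks. Ratios of its single genes ranged from 0.729 at *Tnnt2* to 1.094 at *Myh6*. The list of 5 fibroblast genes had 29 peaks, of which 28 were above 0, 9 were higher and 0 were lower, or 31.0% and 0.0%. Its summed reads were 2573 in control and 3569 in *Arid1a cKO*, a ratio of 1.387, with single genes between 224 and 844 in control and between 307 and 1150 in *Arid1a cKO*. Lists of 5 endothelial and of 4 smooth muscle and pericyte genes gave ratios of 1.015 and 1.053. Of 4 macrophage and leukocyte genes, 3 had peaks, with a ratio of 1.459 and none at *Adgre1*. That ratio rests on 4 peaks with 105 reads in control and 154 in *Arid1a cKO*, of which the *Ptprc* peak held 42.2 and 77.7. *Alb* and *Myod1*, markers of liver and skeletal muscle, were assigned 0 peaks, while *Neurod1* and *Ins2*, which mark neurons and pancreatic beta cells, had 3 peaks and 1 peak. Marker peaks were assigned by the nearest start. Whether peaks of other genes cover the starts of *Adgre1*, *Alb* and *Myod1* was not examined. The 4 peaks of *Neurod1* and *Ins2* were all above 0 and 2 were higher, with a ratio of 1.235 from 151.9 reads in control and 187.5 in *Arid1a cKO*. The peak over the start of *Arid1a*, the targeted gene, had 1607 reads in control and 1663 in *Arid1a cKO*, and H3K27Ac at a start does not show whether a floxed exon was removed. The part of these marker shifts in the values below was not tested.

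The starts of all 3 D-type cyclin genes were slightly above 0. At *Ccnd1*, whose product is cyclin D1, the peak chr7:144935660-144943927 spanned 8268 bp over the single curated start and held 695 reads in control and 826 in *Arid1a cKO*, a difference of 0.25. At *Ccnd2*, which encodes cyclin D2, chr6:127148677-127156141 spanned 7465 bp and held 635 and 798 reads, a difference of 0.33. Of all 12022 peaks that cover a curated start, 17.5% had a difference as high as that of *Ccnd1* and 12.2% as high as that of *Ccnd2*. *Ccnd3*, which encodes cyclin D3, has an upstream and a downstream start. The peak over the upstream start, chr17:47504296-47505880, held 51.3 reads in control and 56.9 in *Arid1a cKO*. The peak over the downstream start, chr17:47592851-47602825, held 734 and 792 reads. With 9975 bp the latter was the widest of the 43 peaks, and 1.56% of all peaks were wider. Both *Ccnd3* starts were nearly level between the genotypes, at 0.15 and 0.11.

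The starts of both kinases were above 0 as well. The peak at *Cdk4*, chr10:127062825-127065073, held 165 reads in control and 205 in *Arid1a cKO*, a difference of 0.31 that 13.3% of start-covering peaks reached. The peak at *Cdk6*, chr5:3340339-3345816, held 526 and 568 reads, a difference of 0.11. Its centre lay nearest to the non-coding gene *Gm36470*, so it covers the *Cdk6* start but is not 1 of the 43. CDK4 and CDK6 are the catalytic partners of the D-type cyclins. The 6 starts of cyclins and kinases, at 0.11 to 0.33, were all above 0 and all within 1.5-fold, where 50.1% of all start-covering peaks were above 0.

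The inhibitors and *Rb1* had no common direction. *Cdkn1a* encodes p21, a target of p53, and has an upstream start that no peak covered and a downstream start under chr17:29093109-29095818, with 162 reads in control and 197 in *Arid1a cKO*, a difference of 0.28. *Cdkn1b* encodes p27, and chr6:134916289-134923308 over its start held 942 reads in control and 867 in *Arid1a cKO*, a difference of -0.12. *Cdkn1c* encodes p57 from an imprinted locus, and chr7:143458868-143461744 held 70.5 and 66.3 reads, a difference of -0.09. Of the CIP/KIP genes only *Cdkn1a* was thus above 0 at its start. The peak of *Cdkn2b*, which encodes the INK4 protein p15, was chr4:89310545-89311310 with 11.6 reads in control and 11.9 in *Arid1a cKO*, a difference of 0.03. At *Rb1*, chr14:73324514-73327430 held 218 and 187 reads, and its difference of -0.22 was the lowest of the 11 start peaks. Among all start-covering peaks, 17.1% were as low as *Rb1* and 15.3% as high as *Cdkn1a*, and 4.43% of them were higher and 4.18% lower by 1.5-fold, against 0 of these 11. Counts above and below 0 at the starts, 8 and 3, were the same after centring on the median of all peaks and after scaling both groups to equal sums, when the 6 cyclin and kinase starts lay between 0.19 and 0.41 and the other 5 between -0.14 and 0.36.

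**Figure D2:**
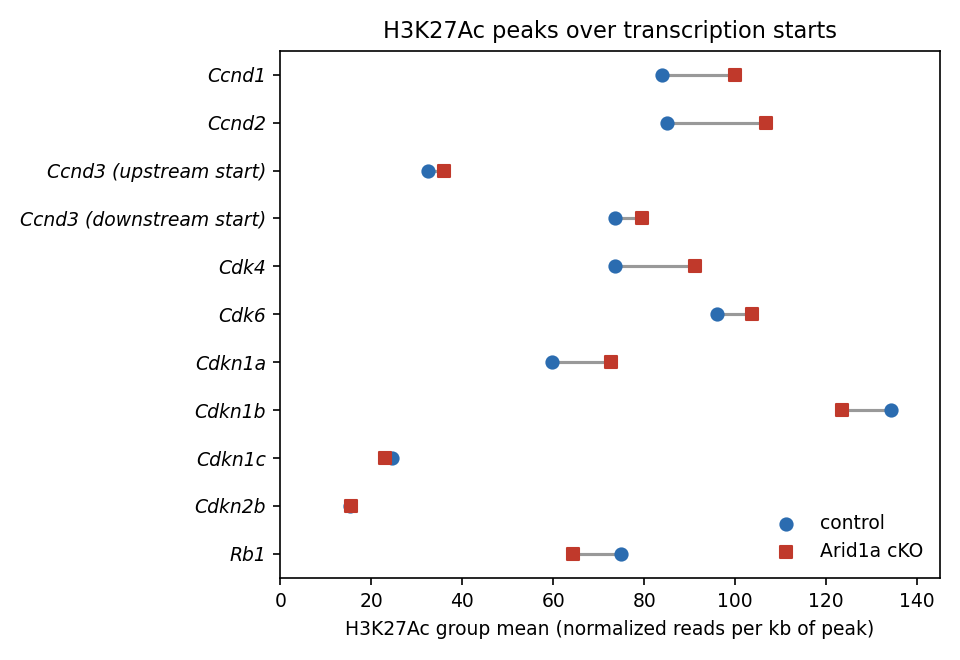
H3K27Ac over the starts of the 10 genes in control (circles) and *Arid1a cKO* (squares), as normalized reads per kb of peak (authors' means of 2 libraries, no error available). *Cdkn1b* has the most reads per kb and *Cdkn2b* the fewest. The squares lie to the right of the circles at the 6 cyclin and kinase starts and also at *Cdkn1a* and, barely, *Cdkn2b*. They lie to the left at *Cdkn1b*, *Cdkn1c* and *Rb1*.

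Levels were compared between genes per kb of peak, since the peaks ranged from 766 to 9975 bp over the starts. In control hearts the order was *Cdkn1b* at 134 reads per kb, *Cdk6* at 96.1, *Ccnd2* at 85.0, *Ccnd1* at 84.0, *Rb1* at 74.8, and then the downstream *Ccnd3* start and *Cdk4*, both at 73.6. *Cdkn1a* followed at 59.8, the upstream *Ccnd3* start at 32.4, *Cdkn1c* at 24.5 and *Cdkn2b* at 15.2. Of all start-covering peaks, 10.9% had more reads per kb than *Cdkn1b* in control and 95.2% had more than *Cdkn2b*. In *Arid1a cKO* the extremes were the same genes, at 124 and 15.5 reads per kb, and *Ccnd2* was next to *Cdkn1b* at 107, followed by *Cdk6* at 104, *Ccnd1* at 99.9 and *Cdk4* at 91.2. *Rb1* stood at 64.3, after *Ccnd3* at 79.4 and *Cdkn1a* at 72.6. Without replicate values, neighbours in this order cannot be separated from one another.

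The sequences at the starts were read from the RefSeq promoter table (build GRCm38.p6, equal to mm10), which holds 300 bases from 250 upstream to 50 downstream of each start. It matched 6 of the 10 genes with 8 promoters, *Ccnd1*, *Ccnd2*, *Cdkn1c* and *Rb1* not being listed. The letters searched on both strands were CATTCC, the core bound by TEAD factors, CACGTG, the E-box bound by MYC and related factors, AGATAA, a form bound by GATA factors, and the E2F forms TTTGGCGC, TTTCCCGC, TTTGGCGG and TTTCGCGC, which share letters but were counted once a position. CACGTG reads the same on both strands. Of 32851 promoters in the table, 14.7% held the TEAD core, 7.15% the E-box, 11.2% the GATA form and 2.37% an E2F form. Among the 8, only those of *Cdk4*, *Cdk6* and the downstream *Ccnd3* start held any of them, and these are printed because they hold the matches and an H3K27Ac peak covers each. They are chr10:127063285-127063584, chr5:3343643-3343942 and chr17:47593217-47593516, on the plus strand, 5′ to 3′, with E-boxes of *Cdk4* and *Cdk6* and the TEAD core of *Ccnd3* in capitals.
Cdk4: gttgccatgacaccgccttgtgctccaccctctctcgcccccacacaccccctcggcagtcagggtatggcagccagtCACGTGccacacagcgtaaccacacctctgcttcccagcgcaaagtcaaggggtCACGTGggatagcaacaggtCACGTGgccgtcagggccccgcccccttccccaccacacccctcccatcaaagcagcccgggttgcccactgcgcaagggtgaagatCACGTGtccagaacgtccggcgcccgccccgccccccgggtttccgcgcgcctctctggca
Cdk6: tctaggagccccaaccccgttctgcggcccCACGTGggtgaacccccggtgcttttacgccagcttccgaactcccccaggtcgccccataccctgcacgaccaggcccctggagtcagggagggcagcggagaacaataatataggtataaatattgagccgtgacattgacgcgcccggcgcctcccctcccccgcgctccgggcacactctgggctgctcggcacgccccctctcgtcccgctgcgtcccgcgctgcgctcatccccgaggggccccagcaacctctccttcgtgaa
Ccnd3: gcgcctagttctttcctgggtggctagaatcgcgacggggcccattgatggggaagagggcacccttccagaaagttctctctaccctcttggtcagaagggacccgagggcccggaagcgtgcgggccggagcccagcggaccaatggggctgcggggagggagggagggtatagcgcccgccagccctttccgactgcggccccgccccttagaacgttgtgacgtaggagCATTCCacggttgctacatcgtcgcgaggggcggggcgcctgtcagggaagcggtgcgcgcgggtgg
The *Cdk4* promoter held 4 E-boxes, a number reached by 8 of the 32851 promoters, or 0.0244%, and the *Cdk6* promoter held 1. A match describes letters only, and whether a factor bound there was not measured.

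The 7 peaks past 1.5-fold are described by gene. *Ccnd1* had 11 peaks, which reached from 11.9 kb downstream of its start to 132 kb upstream, and 2 of them were past the limit. The peak chr7:144927276-144928528, 11.9 kb downstream and within an intron of the neighbouring gene *LTO1*, held 25.8 reads in control and 1.91 in *Arid1a cKO*. The latter mean is under 3 reads, taken as the floor, and with it set to 3 this peak was 8.6-fold lower in *Arid1a cKO*. The intergenic peak chr7:144981609-144982307, 42.1 kb upstream, held 8.34 and 23.8 reads and was 2.85-fold higher. The other *Ccnd1* peaks ranged from -0.38 to 0.39. Of these the upstream peak at 58.9 kb held 209 reads in control and 254 in *Arid1a cKO* (0.28), and that at 86.3 kb held 223 and 229 (0.04). Summed over all 11 peaks, *Ccnd1* had 1402 reads in control and 1612 in *Arid1a cKO*, a difference of 0.20, so the 2 peaks past the limit, which are small, pointed opposite ways and weighed little in the sum.

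*Ccnd2* had 2 peaks, the start peak and chr6:127171792-127173412, 21.6 kb upstream of the start within an intron of *9330179D12Rik*. The upstream peak held 13.7 reads in control and 41.6 in *Arid1a cKO*, 3.03-fold higher, the largest difference above 0 among the 43 peaks. Over both peaks *Ccnd2* had 649 reads in control and 840 in *Arid1a cKO*, and the difference of 0.37 was the largest of the 10 genes, although with protein-coding starts only it was 0.28, below *Cdk4* at 0.31. The central 300 bases of the *Ccnd1* peak with the lowest difference (chr7:144927753-144928052) and of the *Ccnd2* peak with the highest (chr6:127172453-127172752) are printed as the extremes of the 43, on the plus strand, 5′ to 3′, with any match to the 4 kinds of motif in capitals.
Ccnd1 downstream peak: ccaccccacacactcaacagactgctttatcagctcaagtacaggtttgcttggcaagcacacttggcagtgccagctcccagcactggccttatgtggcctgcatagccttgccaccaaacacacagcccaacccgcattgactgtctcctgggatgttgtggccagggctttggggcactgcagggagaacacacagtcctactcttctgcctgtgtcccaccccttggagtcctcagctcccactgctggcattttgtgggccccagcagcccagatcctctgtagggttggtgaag
Ccnd2 upstream peak: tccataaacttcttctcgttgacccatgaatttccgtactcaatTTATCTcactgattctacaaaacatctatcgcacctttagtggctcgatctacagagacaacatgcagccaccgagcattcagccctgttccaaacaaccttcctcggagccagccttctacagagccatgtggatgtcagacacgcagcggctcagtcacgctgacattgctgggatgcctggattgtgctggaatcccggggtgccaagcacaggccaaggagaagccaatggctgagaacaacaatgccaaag
The *Ccnd1* stretch held no match and the *Ccnd2* stretch held 1 GATA form, which stands on the minus strand. In the central 500 bases of the 43 peaks, 16.3% held the TEAD core, 6.98% the E-box, 16.3% the GATA form and 4.65% an E2F form, against 26.4%, 7.96%, 21.5% and 2.29% of all peaks. The 2 peaks with an E2F form were the start peaks of *Cdkn1a* and *Rb1*. The median GC content of these windows was 62.3% at the start peaks and 51.0% at the others, against 60.2% and 47.4% over all peaks of each kind.

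*Ccnd3* had 10 peaks, all but those over its starts within its own introns, and 3 were past the limit. Counted from the upstream start, the peak at 41.1 kb (chr17:47545786-47546521) held 5.70 reads in control and 9.51 in *Arid1a cKO*, a difference of 0.74. The other pair lay ahead of the downstream start. The peak at 26 kb (chr17:47566730-47568219) held 28.8 reads in control and 54.6 in *Arid1a cKO*, a difference of 0.92. The peak at 18.3 kb (chr17:47574798-47575476) held 10.3 and 4.26, a difference of -1.28. Neighbouring intronic peaks of 1 gene thus differed in opposite directions. The large intronic peaks after the upstream start were within the limit. That at 3.39 kb, with 128 and 89.3 reads, was not far short of it (-0.52). Those with 311 and 290 reads at 7.38 kb (-0.10) and 630 and 653 at 16.4 kb (0.05) were nearer to level. Summed over the 10 peaks, *Ccnd3* had the most reads of the 10 genes, 1976 in control and 2029 in *Arid1a cKO*, a difference of 0.04.

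*Cdk6* had 9 peaks, all within its introns from 12.3 to 89.3 kb after the start. The peak chr5:3380227-3382900 at 37.7 kb held 100.4 reads in control and 60.6 in *Arid1a cKO*, and its difference of -0.73 was the only one past the limit. At 76.7 kb the means were 170 and 123 reads (-0.47), and at 12.3 kb they were 47.5 and 66.7 (0.49), within the limit on either side. The other 6 ranged from -0.32 to 0.19. Summed over the 9 intronic peaks, *Cdk6* had 641 reads in control and 584 in *Arid1a cKO*, a difference of -0.13, whereas the peak over its start was at 0.11. With the starts of predicted transcripts added, the sum at *Cdk6* was at 0.18. *Cdk4* had no peak besides that over its start.

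**Figure D3:**
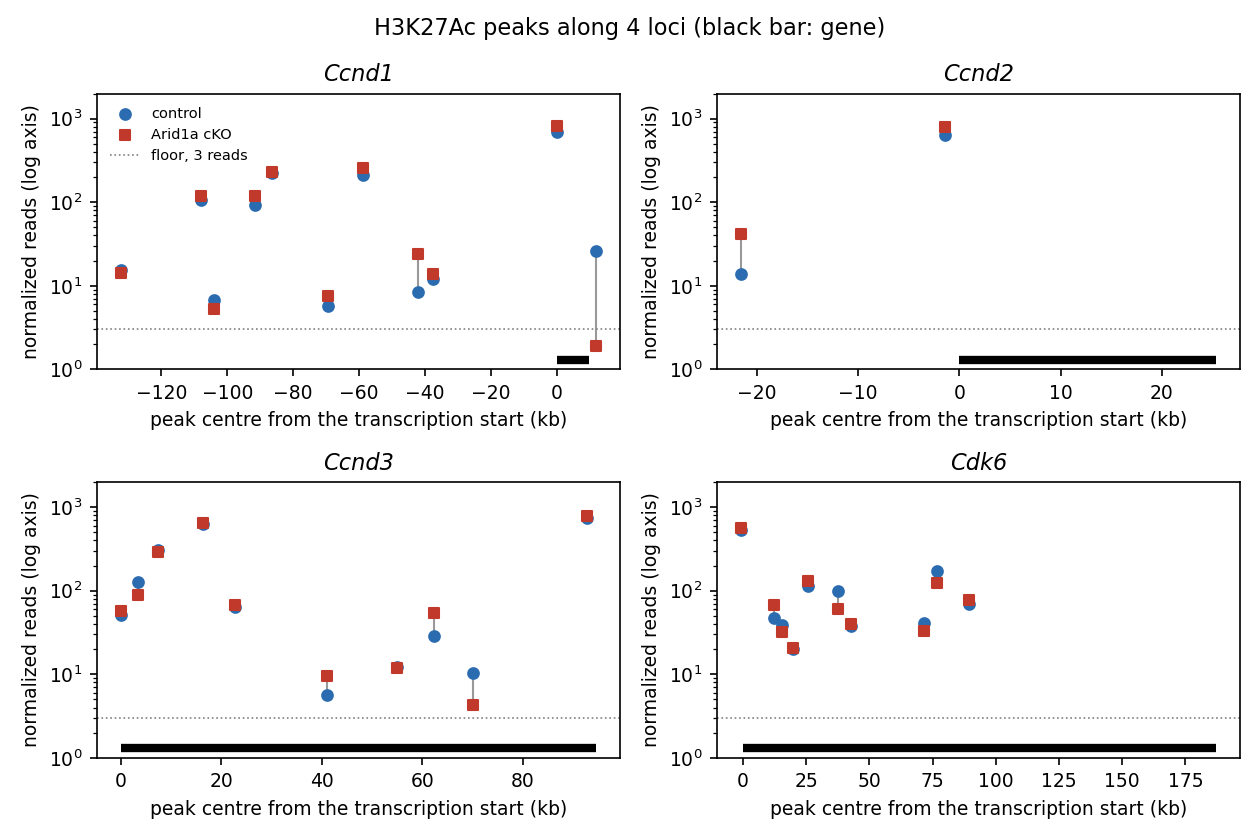
H3K27Ac peaks along *Ccnd1*, *Ccnd2*, *Ccnd3* and *Cdk6* by the distance of their centre from the first transcription start in the direction of transcription (kb), with normalized reads on a log axis in control (circles) and *Arid1a cKO* (squares) and the gene as a black bar. The peak over the *Cdk6* start is drawn although it is not 1 of the 43, and the *Ccnd1* peak at 11.9 kb lies below the dotted floor of 3 reads in *Arid1a cKO* only.

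Among the inhibitors only *Cdkn1c* had peaks away from its start, 4 of them, between 23.1 and 52.7 kb past the start in the direction of transcription. The peak at 52.7 kb lies in an intron of *Kcnq1*, a potassium channel gene of the same imprinted region, and held 15.8 reads in control and 23.3 in *Arid1a cKO* (0.56). The peaks at 28.8 and 23.1 kb held 12.4 and 18.0 reads (0.54) and 16.2 and 21.9 reads (0.43), and that at 32.9 kb was at -0.13. At 0.56 and 0.54, 2 of these were the peaks nearest below the limit, and the nearest past it were those of *Cdk6* at -0.73 and *Ccnd3* at 0.74. Summed over its 5 peaks, *Cdkn1c* had 127 reads in control and 141 in *Arid1a cKO*, a difference of 0.14, although its start was at -0.09. *Rb1* had 1 further peak, 22.9 kb upstream, with 154 reads in control and 164 in *Arid1a cKO* (0.09), and its sum differed by -0.08, or 0.0 with both groups scaled to equal sums. *Cdkn1a*, *Cdkn1b* and *Cdkn2b* had their start peaks only, and with protein-coding starts alone considered the sum at *Cdkn1b* was at 0.02.

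None of the peaks past the limit was among the strongest. When all peaks were divided into 4 equal bins by their mean over both groups, the lowest bin (up to 18.1 reads) held 12 of the 43, of which 2 were higher and 2 lower. In that bin 24.7% of all peaks were higher and 24.9% lower. The second bin (up to 44.3 reads) held 8, with 2 higher and 0 lower, against 15.7% and 22.1% of all peaks. The third held 10, with 0 higher and 1 lower, against 6.47% and 15.3%, and the highest bin (over 126 reads) held 13, with 0 in either direction, against 1.26% and 6.99%. Away from starts, 4 of 33 peaks were higher and 3 lower, or 12.1% and 9.09%, against 14.7% and 22.0% of all 33958 such peaks.

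**Figure D4:**
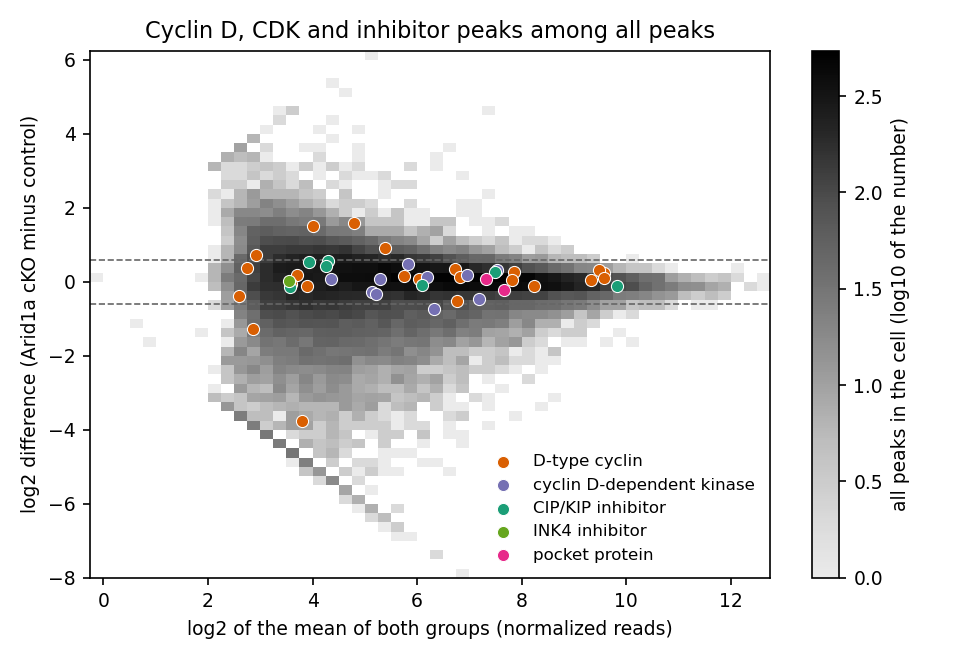
Difference between *Arid1a cKO* and control (log2) against the log2 of the mean of both groups in normalized reads, with all 45980 peaks in grey (number per cell on a log10 scale) and the 43 peaks coloured by the role of their gene. Dashed lines mark 1.5-fold, and none of the coloured points beyond them is among the 13 with a mean over 126 reads.

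Another 54 peaks within 100 kb of the starts were nearest to another gene, and 6 of them were higher and 3 lower, or 11.1% and 5.56%, against 12.0% and 17.3% of all peaks. At *Cdkn1a*, a peak 34.4 kb upstream, nearest to the non-coding RNA gene *Trp53cor1*, held 27.7 reads in control and 74.5 in *Arid1a cKO*, a difference of 1.43. At *Cdk6*, a peak 53.7 kb upstream of the start held 46.9 and 9.99 reads (-2.23), and another 99.8 kb upstream was at 0.76. Around *Cdk4*, 3 peaks were past the limit, all higher. They were nearest to *Mettl1* (21.8 kb upstream, 46.5 and 73.5 reads, 0.66), *Agap2* (11.47 and 19.97 reads, 0.80) and *Os9* (17.27 and 28.05 reads, 0.70). The other peaks around *Cdk4* were within the limit, from -0.07 to 0.46. Among these were the strongest, nearest to *Ctdsp2* (1287 and 1243 reads, -0.05), and the closest, nearest to *Tspan31* (0.11). A peak 56.0 kb past *Cdkn1b*, nearest to *Apold1*, held 19.3 reads in control and 11.9 in *Arid1a cKO* (-0.70). The remaining 2 past the limit, at 85.5 and 93.0 kb past the *Cdkn1c* start, were at -0.76 and 0.72. A peak's nearest gene need not be the gene it acts on, and no contact was measured.

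A list of 29 other genes of G1 and S phase entry was described beside them, namely cyclins E and A, CDK2, other INK4 inhibitors, pocket proteins, E2F and DP factors, the CDK-activating kinase, CDC25A and ubiquitin ligase subunits. By the same nearest-start rule, 26 of these genes had 68 peaks, and *Cdkn2a*, *E2f4* and *Cks1b* were assigned none. Whether a peak assigned to another gene covers the starts of those without one was not examined. Of the 68 peaks 8 were higher and 8 lower, or 11.8% each, against 12.0% and 17.3% of all peaks, with a median difference of 0.16, 45 peaks above 0, 22 below and 1 at 0. Over starts, 20 of 24 peaks were above 0, 3 below and 1 at 0, with a median of 0.20, against 50.1% above 0 and a median of 0.01 over all start-covering peaks. Of the 24, 2 were higher and 0 lower, against 4.43% and 4.18% of all start-covering peaks. These 2 were at *E2f2*, an activating E2F, with 24.3 reads in control and 51.3 in *Arid1a cKO* (1.08), and at *Ccne1*, which encodes cyclin E1, with 48.8 and 74.0 reads (0.60). A stronger *E2f2* peak over another of its starts, with 95.7 and 131 reads, was within the limit (0.45).

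The largest differences in this list were below 0 and lay away from starts. A peak 9.94 kb past the start of *E2f6*, a repressive E2F, held 66.3 reads in control and 1.89 in *Arid1a cKO*, at least 22.1-fold lower. At *Fbxw7*, which encodes the substrate receptor of a ubiquitin ligase that degrades cyclin E, intronic peaks 23.0 and 26.1 kb ahead of its most downstream start held 54.2 and 4.76 reads (-3.51) and 357 and 115 reads (-1.64), and an intergenic peak 164 kb past that start held 59.7 and 32.7 (-0.87). At *E2f8*, an atypical repressive E2F, a peak at 13.4 kb held 18.8 and 3.81 reads (-2.30). In the other direction, a peak 2.44 kb upstream of *Rbl2*, which encodes the pocket protein p130, held 6.77 reads in control and 30.5 in *Arid1a cKO* (2.17). The rest of the 10 largest were *E2f6* peaks at 18.3 and 40.1 kb (0.86 and 0.76) and a peak of *Mnat1*, a subunit of the CDK-activating kinase, at 75.4 kb (-0.86).

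**Figure D5:**
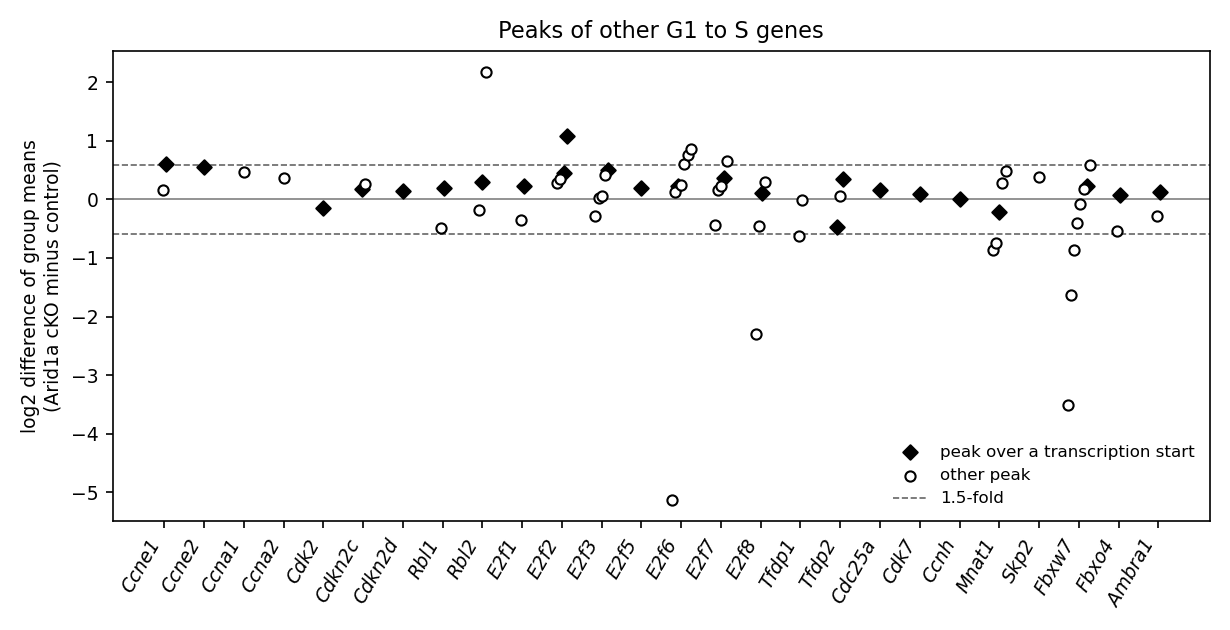
Difference in H3K27Ac between *Arid1a cKO* and control (log2 of the authors' group means) for the 68 peaks of 26 other G1 to S genes, with filled diamonds for peaks over a start, open circles for the others and dashed lines at 1.5-fold. Of the 24 diamonds 20 lie above 0, and the lowest circle, at *E2f6*, rests on an *Arid1a cKO* mean below 3 reads.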

How the data were processed

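H3K27Ac and input libraries of P7 ventricles were grouped by the genotype and antibody given in the labels. Per the study's methods and the submitters' processing notes, the authors' aligner was BWA 0.7.17-r1188 (genome mm10), and they called histone-style peaks with HOMER (4.11 in the notes) against merged inputs, kept peaks present in more than 1 sample, and compared genotypes with DiffBind 2.12.0 and DESeq2 1.24.0. The authors deposited each peak's mean normalized reads on the log2 scale, over all libraries and per genotype, and how libraries were scaled and input handled is not given in the sources used here. The deposited columns of fold change, p-value and FDR hold the authors' own comparison and were not used. There were 0 columns of single libraries, so leaving out a library, a test, an interval and a depth could not be had.

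Group means were returned to the linear scale, and 7 peaks on unplaced sequences were left out, which leaves 45980. Genes came from 45756 curated transcripts of the GRCm38.p6 RefSeq annotation, and all 21 chromosomes held every peak within their length. By its centre a peak was classed as promoter (1000 bp upstream to 100 bp downstream of a start), exon, intron or intergenic. Means at or under 3 reads were a floor. All 10 genes were named with every peak, and of the other G1 to S genes those of the 10 largest differences past 1.5-fold. *Ccne1* was named because it makes up a count of 2, after its values were seen. The genes and lists were chosen with earlier results of these data known. Alternatives covered the fold limit, scaling, an offset, a filter on low peaks and the assignment to genes. The search for the nearest start and the count past the limit were checked on simulated data. The simulated 2-fold shifts had no noise, so their recovery was fixed in advance. Other steps were not checked this way. Python 3.11.15, numpy 2.4.6, pandas 2.3.3, pysam 0.24.0 and matplotlib 3.10.9 were used.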

Additional observations from a re-analysis of the deposited data

How the results depend on the processing

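The median difference over the peaks of the cyclin D, CDK and inhibitor genes stayed between 0.055 and 0.174 under all 10 alternatives, and no value past the limit changed direction. Counts depended on the limit, on the scaling and on the assignment of peaks. Of the 4 higher and 3 lower peaks, a 2-fold limit left 2 higher and 2 lower, against 4.57% and 10.6% of all peaks. A limit of 0.322 on the log2 scale gave 11 higher and 6 lower, against 23.6% and 25.1% of all peaks. Without the lowest of 4 equal bins by mean reads, 2 of 31 were higher and 1 lower, against 7.81% and 14.8% of all peaks. With predicted transcripts added, 28 peaks were assigned, 2 higher and 2 lower. With protein-coding starts only, 67 were assigned, 7 higher and 6 lower. Counting every peak within 100 kb, an alternative chosen after seeing the data, gave 94 peaks, 10 higher and 6 lower. Under these changed assignments the shares over all peaks stayed at 12.0% higher and 17.3% lower. Scaling both groups to equal sums moved the split over all peaks from 12.0% higher and 17.3% lower to 14.8% and 15.6%, and gave 6 higher and 3 lower, the added pair being *Cdkn1c* peaks. Of the 8 higher and 8 lower peaks among the 68 of the other G1 to S genes, a 2-fold limit left 2 and 4. The limit of 0.322 gave 19 and 15, and predicted transcripts gave 4 and 4 of 50. Adding 3 reads left 4 higher and 6 lower, against 9.61% and 15.8% of all peaks. Leaving out the lowest bin left 6 higher and 5 lower of 55, against 7.81% and 14.8%. The summed difference of *Cdk6* was -0.13 and became 0.18 with predicted transcripts, and that of *Cdkn1b* was -0.12 and became 0.02 with protein-coding starts only, which also brought *Cdkn1a* from 0.28 to 0.14, since other sets of peaks were then assigned to these genes. Adding 3 reads brought the *Ccnd1* peak under the floor to -2.55 and the *Ccnd3* peak at 41.1 kb to 0.53, within the limit. No paired analysis was possible because the deposited columns are group means without replicates, and for the same reason no replicate could be left out.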
